A study of Mus musculus with 4 samples.

Results

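Interferon-stimulated genes were followed in mouse embryonic stem (ES) cells and in cells differentiated from them towards neural progenitors (NP), with and without the de novo DNA methyltransferases Dnmt3a and Dnmt3b. The set holds 33 genes, listed by name among the 23235 genes of the deposited expression table, and 30 of them reached 1 FPKM (fragments scaled by transcript length and by the number of mapped reads) in at least 1 library. The members were chosen on measured values, because several are high in the differentiated knockout cells, so every comparison that uses that library describes the choice and supports nothing. WT_ES were wild-type J1 ES cells of the 129S4/SvJae strain on day 0, grown in serum with LIF after earlier passages on irradiated feeder cells. DKO_ES carried deletions of both Dnmt3a and Dnmt3b in the same J1 background. WT_NP and DKO_NP were the same lines on day 6, after 4 days as embryoid bodies and 2 days of retinoic acid. Each of the 4 groups was 1 library, so no difference below has a replicate check, no test was possible, and a genotype cannot be told apart from the cell line that carries it.

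Type I interferons bind a receptor on the cell surface whose kinases JAK1 and TYK2 phosphorylate STAT proteins. STAT2 and IRF9 are subunits of the factor ISGF3, which binds interferon-stimulated response elements (ISREs) in the promoters of many antiviral genes. Their products block viral entry, degrade or sequester viral RNA, and tag proteins with the ubiquitin-like ISG15. Pluripotent stem cells are known to respond weakly to interferon while holding some of these genes at a steady level.

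The promoters of 5 members are printed because they hold, or lack, the ISRE-type motif in genes that differed in opposite ways between the day 6 libraries. Each is a RefSeq GRCm38.p6 window of 250 bases before and 50 bases after the annotated start, read 5′ to 3′ along the gene. The windows are chr4:156200769-156201068 (minus strand) for Isg15, chr19:34640639-34640938 (plus strand) for Ifit1, chr5:120907476-120907775 (minus strand) for Oas1a, chr7:140955912-140956211 (minus strand) for Ifitm2 and chr5:114896684-114896983 (plus strand) for Oasl2. Capitals mark every base within a match to GAAANNGAAA on either strand.
Isg15: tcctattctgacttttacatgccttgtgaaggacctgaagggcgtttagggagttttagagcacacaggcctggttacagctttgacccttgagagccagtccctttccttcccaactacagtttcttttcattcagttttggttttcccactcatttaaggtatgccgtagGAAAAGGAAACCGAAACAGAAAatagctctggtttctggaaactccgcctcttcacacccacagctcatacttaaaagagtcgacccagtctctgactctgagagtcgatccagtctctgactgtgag
Ifit1: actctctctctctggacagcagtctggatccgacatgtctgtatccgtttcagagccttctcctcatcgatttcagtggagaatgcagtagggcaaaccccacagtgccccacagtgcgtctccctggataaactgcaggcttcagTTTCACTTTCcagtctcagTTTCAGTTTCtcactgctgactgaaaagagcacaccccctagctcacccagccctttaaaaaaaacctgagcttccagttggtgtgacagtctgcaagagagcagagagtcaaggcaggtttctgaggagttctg
Oas1a: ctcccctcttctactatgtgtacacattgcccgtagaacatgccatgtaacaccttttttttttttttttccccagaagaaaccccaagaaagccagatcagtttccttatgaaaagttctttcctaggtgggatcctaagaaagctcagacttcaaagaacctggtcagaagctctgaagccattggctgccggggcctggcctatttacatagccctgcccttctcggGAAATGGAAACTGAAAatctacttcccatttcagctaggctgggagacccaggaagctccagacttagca
Ifitm2: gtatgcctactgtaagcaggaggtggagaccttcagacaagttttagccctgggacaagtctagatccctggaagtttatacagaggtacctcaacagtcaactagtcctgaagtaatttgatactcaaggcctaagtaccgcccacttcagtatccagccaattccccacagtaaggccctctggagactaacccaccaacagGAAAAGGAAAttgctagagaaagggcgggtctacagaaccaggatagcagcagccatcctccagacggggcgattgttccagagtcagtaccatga
Oasl2: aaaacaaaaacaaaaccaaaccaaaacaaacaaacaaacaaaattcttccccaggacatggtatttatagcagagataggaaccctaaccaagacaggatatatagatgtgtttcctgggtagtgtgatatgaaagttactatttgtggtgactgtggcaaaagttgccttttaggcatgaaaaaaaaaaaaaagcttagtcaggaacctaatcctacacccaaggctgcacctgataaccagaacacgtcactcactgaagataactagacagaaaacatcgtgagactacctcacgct
Isg15 held 3 overlapping matches, the first 78 bases before the start. Ifit1 held 2 separate matches on the opposite strand, 104 and 85 bases before the start, and Oas1a held 2 overlapping matches 20 and 14 bases before it. Ifitm2 held 1 match 46 bases before the start and was 1.78-fold lower in DKO_NP than in WT_NP. Oasl2, 10.5-fold higher in DKO_NP than in WT_NP, held none in this window.

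Windows were found for 25 of the 33 members, and not for Usp18, Oas2, Mx1, Mx2, Parp9, Parp14, Rtp4 and Ifi27l1. An ISRE-type match was present in 12 of these 25 genes (48.0%), against 3.99% of the 27025 genes with a window and 3.44% of all 32851 windows. The members with a match were Stat2, Isg15, Oas1a, Oas3, Ifit1, Ifit3, Gbp2, Gbp3, Bst2, Ifitm2, Ifitm3 and Rsad2. Those of Ifitm3 lay 3 and 20 bases past the start, and the matches of Bst2 lay 130 and 124 bases before it. Of the members at least 2-fold higher in DKO_NP than in WT_NP, 7 of 9 with a window held a match, and of the other members at 1 FPKM 4 of 14 did. This split uses the DKO_NP values that chose the set, so it describes the choice and supports nothing. Usp18, Oas2, Parp9, Parp14, Rtp4 and Ifi27l1 were called higher as well but have no window. A GAS-type motif, TTCNNNGAA, a form known from genes that respond to interferon gamma, was present in 6 of the 25 genes (24.0%), against 9.55% of all genes with a window and 8.30% of all windows. The median ratio of observed to expected CpG was 0.29 over the windows of the members, 0.38 over all windows and 0.73 over the windows of genes that reached 1 FPKM. Irf1 had the window richest in CpG, at 1.02. A match is a description of letters, and no match says nothing of the factor. DNA methylation of these windows was not analysed here.

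Sequencing depth, recovered from the steps in low FPKM values, was about 15.6 M reads in WT_ES, 41.1 M in WT_NP, 17.0 M in DKO_ES and 28.4 M in DKO_NP. Dnmt3a was at 35.3, 17.2, 12.3 and 4.14 FPKM and Dnmt3b at 140.3, 9.98, 13.9 and 5.22 FPKM (order WT_ES, WT_NP, DKO_ES, DKO_NP), so both were lower in the knockout library of each day, although a value per gene does not show which exons remain. All values below are in the order WT_ES, WT_NP, DKO_ES, DKO_NP unless the library is named, and are FPKM as deposited. Folds are of FPKM divided by a median scaling factor per library (1.32, 0.671, 1.25 and 0.908), because the median gene as deposited was lower by a log2 ratio of -0.78 in WT_NP than in WT_ES and higher by 0.36 in DKO_NP than in WT_NP. The 95% intervals (exact binomial) cover counting error only, and copies made by PCR are not independent molecules. Calls used log2 ratios of scaled FPKM with 1 FPKM added, which understate differences of low genes, and a member was called where that ratio was 1 or more in size, which is a 2-fold difference.

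On day 6, 15 of 30 members were at least 2-fold higher in DKO_NP than in WT_NP and 0 were 2-fold lower. Over all 14713 genes that reached 1 FPKM, 4.40% were called higher and 7.43% lower in this comparison. The members' median log2 ratio was 0.98, against 0.01 over all genes. These figures restate how the genes were picked. As deposited the counts were 17 and 0 for the members, and 9.39% and 3.61% of all genes. By log2 ratio with 1 FPKM added, Ifi27l1, Isg15, Rtp4, Oasl2 and Ifit1 led. By the folds without it, Oas2 and Oas1a, which have few reads in WT_NP, also stood among the first 5, while the factors Stat2 and Irf9, the ligase Trim25 and Ifitm1 differed by 1.33-fold or less. The set also held genes lower in DKO_NP, namely Ifitm2, Ifit2 and Oas3, and Trim25 was at 0.987-fold. In 8 members (Isg15, Usp18, Oasl2, Ifit1, Gbp3, Rsad2, Rtp4 and Ifi27l1) DKO_NP was at least 2-fold above every other library, as it was for 1.54% of all genes, and this count too comes from the values that chose the set. Usp18 enters it with a listed 0 in DKO_ES, which can be a failed estimate.

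**Figure D1:**
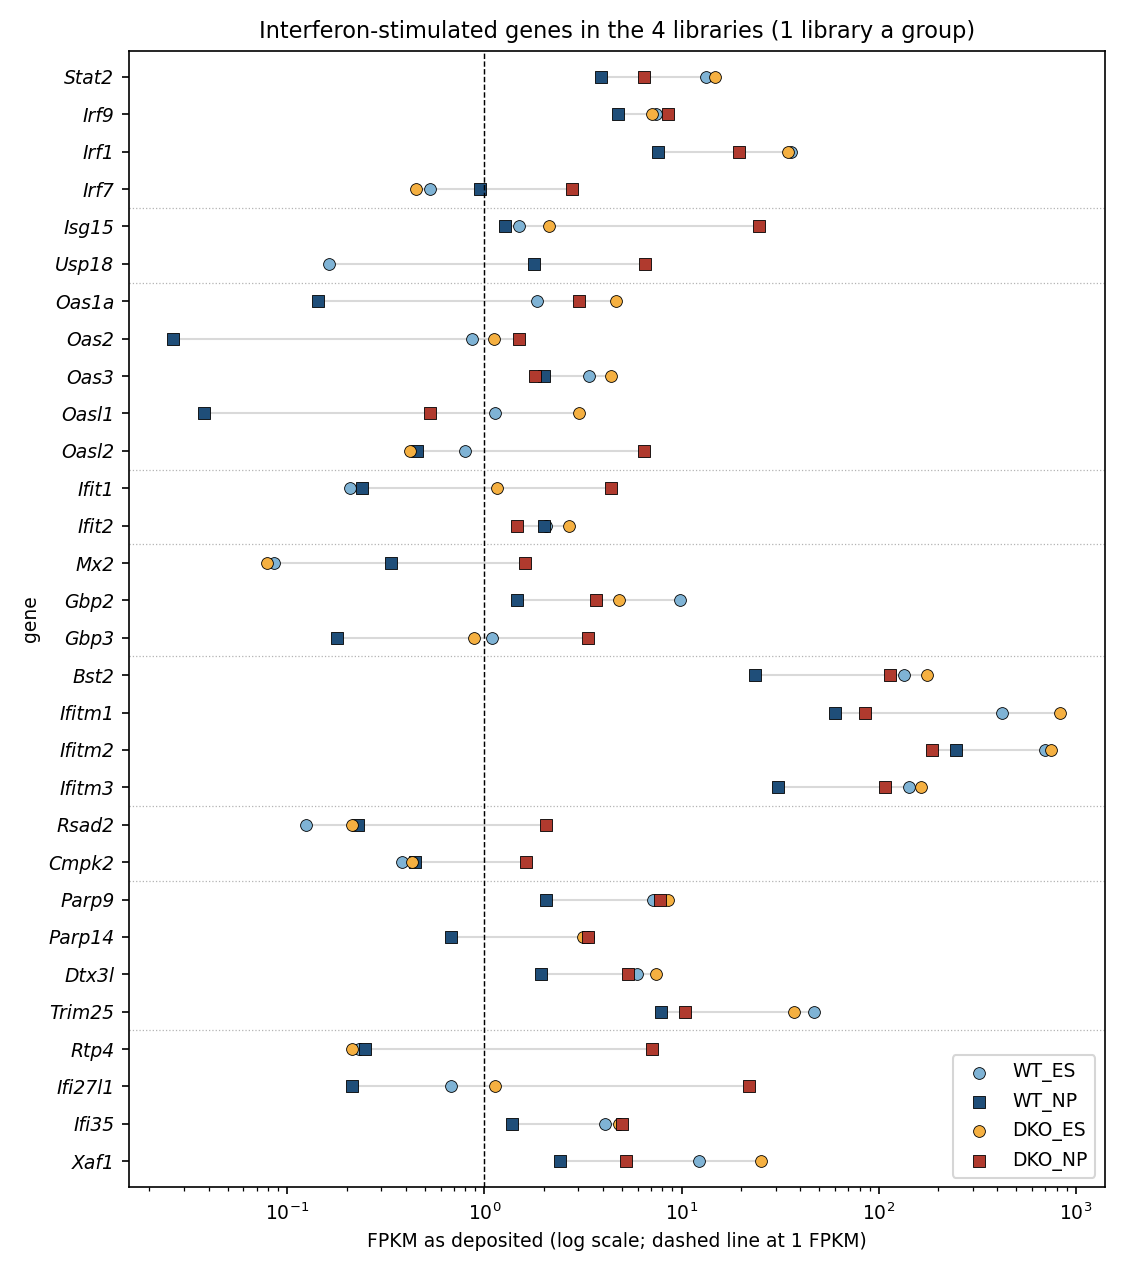
FPKM as deposited (log scale) of the 30 members at 1 FPKM or more, in role order from factors at the top to other effectors at the bottom; circles are ES and squares NP libraries, blue wild type and orange or red knockout, and the 0 listed for Usp18 in DKO_ES is not drawn. Isg15, Rtp4 and Ifi27l1 stand apart in DKO_NP at 24.9, 7.06 and 21.9 FPKM, while Ifitm1, Ifitm2, Trim25 and Xaf1 are highest in ES cells.

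Of the 4 transcription factors, 0 were called between the day 6 libraries. Stat2, a subunit of ISGF3, was at 13.3, 3.90, 14.8 and 6.47 FPKM, and Irf9, its DNA-binding subunit, was at 7.46, 4.75, 7.11 and 8.56 FPKM. Both ES libraries were above both NP libraries for Stat2, and the 4 libraries lay between 4.75 and 8.56 FPKM for Irf9. DKO_NP over WT_NP was 1.23-fold for Stat2 (95% interval 1.1 to 1.36) and 1.33-fold for Irf9 (1.19 to 1.49). Irf1, an early-response activator downstream of interferon gamma, was at 35.9, 7.58, 34.6 and 19.6 FPKM. WT_NP was the low library, 1.91-fold below DKO_NP (1.73 to 2.12). Irf7, the factor that amplifies type I interferon production and is itself interferon-induced, passed 1 FPKM in DKO_NP alone, at 2.79 FPKM against 0.530, 0.95 and 0.449 FPKM in the 3 other libraries, and was 2.17-fold above WT_NP (1.65 to 2.88).

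Both genes of the ISG15 system were called higher in DKO_NP. Isg15, the ubiquitin-like protein itself, was at 1.5, 1.27, 2.12 and 24.9 FPKM. The intervals of WT_NP and of DKO_ES over WT_ES both included 1, and DKO_NP was 14.5-fold above WT_NP (9.91 to 21.9). Behind these values are about 13.0, 29.0, 20 and 392 reads. Usp18, the protease that removes ISG15 and damps signalling at the receptor, was at 0.162 and 1.79 FPKM in WT_ES and WT_NP, was listed at 0 in DKO_ES and was at 6.52 FPKM in DKO_NP. It was high in both NP libraries, and DKO_NP exceeded WT_NP by 2.69-fold (2.16 to 3.37). A listed 0 can be a failed estimate in these values, so no fold against DKO_ES is given.

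The oligoadenylate synthetase family, sensors of double-stranded RNA that activate RNase L and their relatives, did not move as a block. Oas1a was at 1.85, 0.144, 4.65 and 3.03 FPKM and Oas2 at 0.869, 0.0264, 1.12 and 1.5 FPKM. For these genes WT_NP was the one low library, with about 9.9 and 4.1 reads, and DKO_NP lay between the ES libraries for Oas1a and above both for Oas2. The folds over WT_NP, 15.6 for Oas1a (8.23 to 33.3) and 42.0 for Oas2 (16.2 to 153), therefore rest on few reads. Oasl2, an OAS-like protein, had another shape, at 0.802, 0.453, 0.419 and 6.42 FPKM. DKO_NP alone was high, 10.5-fold over WT_NP (7.90 to 14.1). Oas3 was at 3.38, 2.00, 4.40 and 1.81 FPKM, and was 1.5-fold lower in DKO_NP than in WT_NP (1.27 to 1.77). Oasl1, which in mouse restrains Irf7 translation, was at 3.01 FPKM in DKO_ES and at 1.13 FPKM or less elsewhere, with about 3.1 reads in WT_NP.

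Among the IFIT proteins, which bind viral RNA, and the interferon-induced GTPases, neighbours and close relatives differed. Ifit1 was at 0.209, 0.238, 1.15 and 4.39 FPKM, higher in both knockout libraries than in both wild-type ones, and 13.6-fold higher in DKO_NP than in WT_NP (8.96 to 21.5). Ifit2, on the same chromosome 19, was 1.86-fold lower (1.53 to 2.28) and lay between 1.46 and 2.70 FPKM throughout. Gbp3, a guanylate-binding GTPase of cell-autonomous defence, was at 1.1, 0.179, 0.888 and 3.36 FPKM, with a 13.9-fold difference between the NP libraries (8.63 to 23.8). Gbp2 of the same family was at 9.77, 1.46, 4.83 and 3.70 FPKM. It was highest in WT_ES and lowest in WT_NP, and the knockout libraries lay between them, with DKO_NP 1.87-fold above WT_NP (1.51 to 2.32). Mx2, a dynamin-like GTPase, reached 1.61 FPKM in DKO_NP and at most 0.338 FPKM elsewhere. RefSeq annotates Mx1 and Mx2 as pseudogenes in the reference strain, which is not the strain of these cells.

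The membrane proteins were the most abundant members and were high in ES cells of both genotypes. Bst2 (tetherin), which holds budding virus at the surface, was at 134, 23.5, 175 and 114 FPKM. The low library was WT_NP, and DKO_NP was 3.58-fold above it (3.26 to 3.94). Ifitm3, which blocks viral fusion in endosomes, was at 142, 30.8, 163 and 108 FPKM, the same shape, with DKO_NP 2.59-fold above WT_NP (2.36 to 2.86). Ifitm1 was at 424, 59.8, 835 and 84.8 FPKM and Ifitm2 at 694, 246, 751 and 186 FPKM. Both ES libraries exceeded both NP libraries for this pair. Between the NP libraries Ifitm1 differed by 1.05-fold (0.977 to 1.12), and Ifitm2 was 1.78-fold lower in DKO_NP (1.70 to 1.88). The Ifitm genes, like the Oas1 and Gbp genes, have close copies among which reads of 50 cycles may be split, so the share of each copy is uncertain.

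Rsad2 (viperin), a radical enzyme that makes a chain-terminating nucleotide, and its neighbour Cmpk2, a mitochondrial nucleotide kinase, both had their highest level in DKO_NP. Rsad2 was at 0.124, 0.230, 0.212 and 2.06 FPKM, 6.64-fold above WT_NP (4.60 to 9.85), and Cmpk2 reached 1.63 FPKM against 0.383 to 0.445 FPKM elsewhere. In the 3 other libraries neither reached 1 FPKM.

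Of the ADP-ribosylation and ubiquitin ligase genes, Parp9 and Parp14 were called higher in DKO_NP than in WT_NP, and Dtx3l and Trim25 were not called. Parp9, which works in a complex with the ubiquitin ligase Dtx3l, was at 7.13, 2.06, 8.52 and 7.80 FPKM, and Dtx3l at 5.95, 1.94, 7.43 and 5.36 FPKM. Parp14, a mono-ADP-ribosyltransferase, was at 3.34, 0.679, 3.17 and 3.34 FPKM. In all 3, WT_NP was the low library and the other libraries lay within 1.5-fold of each other as deposited. The NP folds were 2.80 (2.44 to 3.22), 2.04 (1.80 to 2.30) and 3.63 (3.1 to 4.27). Parp9 and Dtx3l overlap head to head, and with no strand stated their shared reads cannot be told apart. Trim25, a ligase that activates the RNA sensor RIG-I, was at 47.1, 7.83, 37.0 and 10.5 FPKM, and its NP libraries differed by 0.987-fold (0.922 to 1.06).

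The remaining effectors ranged from Ifi27l1, first of the set in DKO_NP over WT_NP, to Xaf1, which was not called. Ifi27l1, which RefSeq lists as a synonym of the mitochondrial and nuclear-envelope gene Ifi27, was at 0.676, 0.212, 1.14 and 21.9 FPKM. DKO_NP was 76.4-fold above WT_NP (36.3 to 195), rank 28 of 14713 genes by log2 ratio, with about 6.8 reads in WT_NP. Its span overlaps that of Ifi27l2a in RefSeq, so some reads may be shared. Rtp4, a chaperone of receptor transport that is strongly interferon-induced, was at 0.232, 0.247, 0.214 and 7.06 FPKM. The 3 other libraries lay between 0.214 and 0.247 FPKM, and DKO_NP was 21.1-fold above WT_NP (12.3 to 39.1), rank 69. Ifi35, a partner of NMI, was at 4.07, 1.38, 4.80 and 4.97 FPKM, with WT_NP low and a 2.66-fold difference (1.98 to 3.59). Xaf1, a pro-apoptotic antagonist of XIAP, was at 12.3, 2.41, 25.2 and 5.23 FPKM, high in ES cells and highest in DKO_ES.

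The 3 members that did not reach 1 FPKM peaked at 0.878 FPKM (Ifit3), 0.492 FPKM (Ifi44) and 0.251 FPKM (Mx1), and the members just inside the threshold peaked at 1.5 FPKM (Oas2), 1.61 FPKM (Mx2) and 1.63 FPKM (Cmpk2). Irf7, Oasl2, Mx2, Rsad2, Cmpk2 and Rtp4 passed through DKO_NP alone.

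On day 0 few of the same genes were called between the genotypes. DKO_ES was at least 2-fold above WT_ES for 2 of 30 members, Ifitm1 and Xaf1, and 2-fold below it for 0. Over all genes 2.37% were called higher and 1.06% lower. The members' median log2 ratio was 0.20, against 0.01 over all genes, and 22 of 30 members were above WT_ES by any amount (19 of 30 as deposited), as were 50.8% of all genes (42.6% as deposited). The ratio holds no DKO_NP value, but the members were picked on DKO_NP and 6 of the 30 passed the 1 FPKM filter through it alone. Of the 24 members that passed without it, 20 were above WT_ES and the median was 0.28, a filter chosen after seeing the data. Over the 14452 genes that passed the same filter, 50.8% were above WT_ES and the median was 0.01. Ifitm1 was 2.08-fold higher (2.00 to 2.15) and Xaf1 2.16-fold higher (1.93 to 2.42), but with the values as deposited 0 members reached the 2-fold call. Some low members differed more without the added 1 FPKM: Ifit1 by 5.81-fold (2.73 to 14.2), Oasl1 by 2.82-fold (1.90 to 4.27) and Oas1a by 2.65-fold (1.89 to 3.76). For the members first by log2 ratio on day 6, the ES fold was 1.49 for Isg15 (0.706 to 3.26), 0.969 for Rtp4 (0.222 to 4.23) and 1.77 for Ifi27l1 (0.709 to 4.77), and the intervals are wide because each rests on at most 20 reads a library. Gbp2 and Oasl2 were lower in DKO_ES, by 1.92-fold (1.61 to 2.30) and 1.82-fold (1.03 to 3.28).

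The genotype log2 ratio of day 6 minus that of day 0 had a median of 0.88 over the 30 members. It was widest for Ifi27l1 at 3.92, Isg15 at 2.96, Rtp4 at 2.69 and Oasl2 at 2.54. At the other end were Ifitm2 at -1.02, Ifitm1 at -0.99, Ifit2 at -0.92 and Oas3 at -0.75. This difference uses DKO_NP and was not tested.

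**Figure D2:**
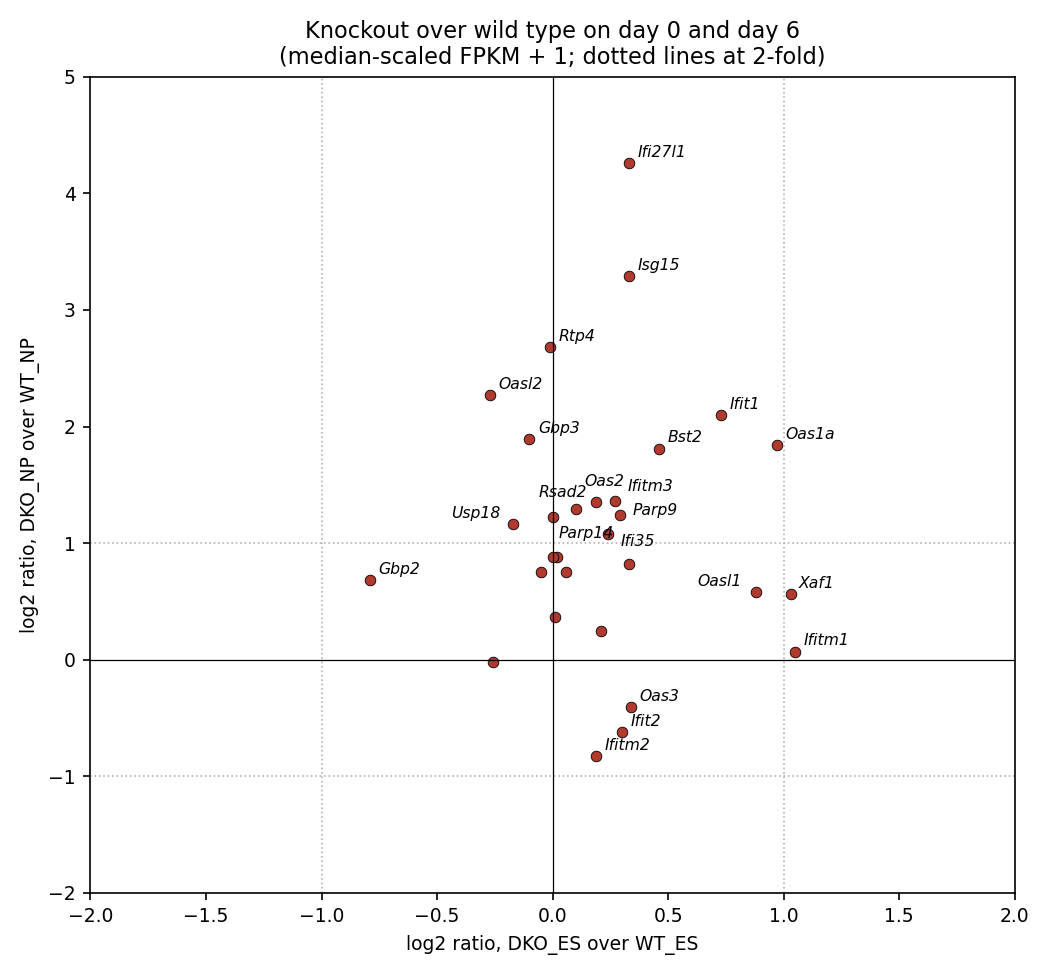
Log2 ratio of knockout over wild type on day 0 (x axis) and on day 6 (y axis) for the 30 members, from median-scaled FPKM with 1 FPKM added, dotted lines at 2-fold. Of these points 15 lie above the upper line on the y axis and 2, Xaf1 and Ifitm1, lie past the right line on the x axis.

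In wild-type cells more members were called lower than higher after differentiation. From WT_ES to WT_NP, 7 of 30 members were at least 2-fold lower (Irf1, Gbp2, Bst2, Ifitm1, Ifitm3, Trim25 and Xaf1) and 1, Usp18, was higher. Over all genes 10.8% were called lower and 15.7% higher. The members' median log2 ratio was -0.51, against 0.01 over all genes. The same 6 members entered here through DKO_NP alone, and over the 24 others the median was -0.66, with 7 lower and 1 higher. Ifitm1 was 3.60-fold lower (3.41 to 3.81), Gbp2 3.40-fold (2.79 to 4.17), Trim25 3.06-fold (2.89 to 3.24) and Bst2 2.90-fold (2.62 to 3.20). Usp18 was 21.7-fold higher, with an interval of 8.23 to 81.3 that rests on about 4.0 reads in WT_ES. Some low members, not called, differed more without the added 1 FPKM. Oas2 was 16.7-fold lower (6.2 to 62.6), Oasl1 15.2-fold (4.83 to 75.1) and Oas1a 6.55-fold (3.27 to 14.6). Gbp3 was 3.12-fold lower (1.76 to 5.74) and Parp14 2.5-fold (2.1 to 2.98). Mx2 was 7.72-fold higher (2.4 to 39.7), Rsad2 3.63-fold (1.58 to 9.75), Irf7 3.52-fold (2.06 to 6.36) and Cmpk2 2.28-fold (1.32 to 4.14). As deposited 15 members were called lower, because the scaling raises every WT_NP value; of all genes 39.9% were then called lower and 6.12% higher.

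In knockout cells the set split. From DKO_ES to DKO_NP, 11 members were at least 2-fold higher (Irf7, Isg15, Usp18, Oasl2, Ifit1, Mx2, Gbp3, Rsad2, Cmpk2, Rtp4 and Ifi27l1) and 5 were lower (Oasl1, Ifitm1, Ifitm2, Trim25 and Xaf1). The call of Usp18 rests on its listed 0 in DKO_ES, which can be a failed estimate. Over all genes 11.3% were called higher and 10.7% lower. The members' median was 0.35, against -0.01 over all genes, and it turned to -0.04 with the values as deposited. That scale gave 10 members higher and 6 lower, and 7.49% and 20.8% of all genes. Rtp4 was 45.6-fold higher (19.3 to 142), Ifi27l1 26.6-fold (16.0 to 47.9), Oasl2 21.1-fold (13.7 to 34.5) and Isg15 16.2-fold (10.3 to 26.8). Bst2, which was lower in WT_NP than in WT_ES, was at 0.895-fold in DKO_NP (0.839 to 0.956). Ifitm1 was 7.14-fold lower (6.78 to 7.53), beyond its 3.60-fold in wild-type cells, and Trim25 was 2.57-fold lower (2.42 to 2.72), against 3.06-fold in wild-type cells.

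**Figure D3:**
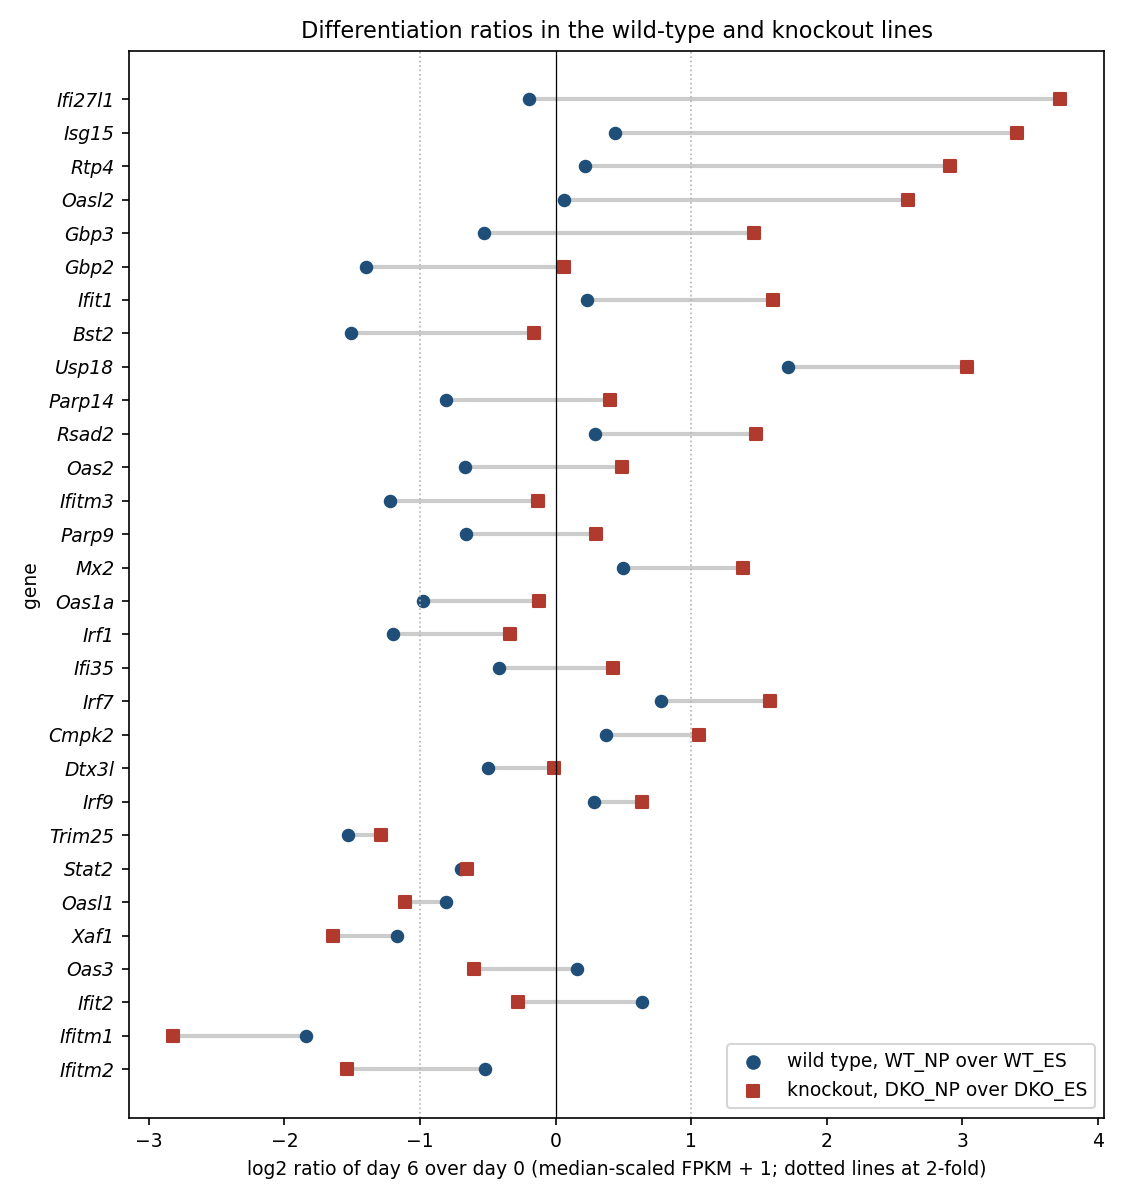
Log2 ratio of day 6 over day 0 for each of the 30 members, from median-scaled FPKM with 1 FPKM added, circles for the wild-type and squares for the knockout line, ordered by the gap between them. The square lies furthest right of the circle for Ifi27l1, Isg15, Rtp4 and Oasl2 and left of it for Ifitm1 and Ifitm2.

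Upstream of these genes, 1 of the interferon genes reached 1 FPKM. Of 21 interferon genes listed, 19 were in the table, 13 were listed at 0 in all 4 libraries, Ifnb1 among them, and Ifnk was the one that reached 1 FPKM, at 0.723, 1.77, 0.285 and 0.795 FPKM. Since a listed 0 can be a failed estimate, these zeros do not show that the genes were silent. The 6 receptor chains all reached 1 FPKM and 0 were called in either genotype comparison, with a median log2 ratio of -0.47 in DKO_NP against WT_NP. Ifnar1 was at 20.9, 17.4, 23.4 and 16.4 FPKM and Ifnar2 at 12.7, 9.71, 7.98 and 9.48 FPKM. Both chains of the type I receptor were therefore at 7.98 FPKM or more in every library. The receptor-associated kinases Jak1, Jak2 and Tyk2 differed by 1.39-fold, 1.64-fold and 1.01-fold in DKO_NP over WT_NP, and were not called.

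Cytosolic sensors of RNA were among the pathway genes higher in DKO_NP. Ddx58 (RIG-I) was at 5.47, 2.24, 8.89 and 7.15 FPKM and was 2.35-fold above WT_NP (2.07 to 2.68). Ifih1 (MDA5) was at 0.0369, 0.132, 0.0550 and 1.36 FPKM, high in DKO_NP alone, with a 7.63-fold difference (5.14 to 11.7). The 3 other genes listed with these sensors that reached 1 FPKM were not called. Without the added 1 FPKM, Tmem173 was 4.01-fold higher in DKO_NP than in WT_NP (2.53 to 6.59). Mavs was 1.13-fold higher (1.01 to 1.26) and Mb21d1 (listed as E330016A19Rik) 1.78-fold lower. Of the 8 negative regulators (SOCS, PIAS and phosphatase genes) 0 were called in either genotype comparison, and the same held for the conjugation enzymes Uba7 and Ube2l6. Of 5 other IRF factors 0 were called on day 6, and Irf8 was lower in DKO_ES, at 1.0 FPKM against 3.64 FPKM in WT_ES.

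A further list of 63 genes known to be interferon-induced was drawn up with earlier results of these data known, and 44 of its genes reached 1 FPKM. Among the 14713 genes, 4.40% were called higher and 7.43% lower in DKO_NP than in WT_NP, and their log2 ratios had the median 0.01. In the list 11 were called higher and 0 lower between these libraries, with a median log2 ratio of 0.58. By size the first were Parp12, an ADP-ribosyltransferase, at 9.63, 0.687, 12.7 and 7.69 FPKM and 8.27-fold (6.59 to 10.5), Phf11d (listed as D14Ertd668e) at 10.3, 0.75, 14.5 and 7.60 FPKM, and Irgm1, an immunity-related GTPase, at 2.83, 1.41, 4.51 and 8.53 FPKM and 4.47-fold (3.65 to 5.50). Nmi, the partner of Ifi35, was at 1.38, 0.274, 1.93 and 3.17 FPKM. In DKO_ES against WT_ES 1 gene was called, Slfn5, 2.48-fold higher (2.30 to 2.69), with a median over the list of 0.13. Of all genes 2.37% were called higher and 1.06% lower on day 0, with a median of 0.01. For Parp12 and Phf11d, as for Bst2 and Parp9, WT_NP was the low library, whereas Irgm1 and Nmi were highest in DKO_NP.

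**Figure D4:**
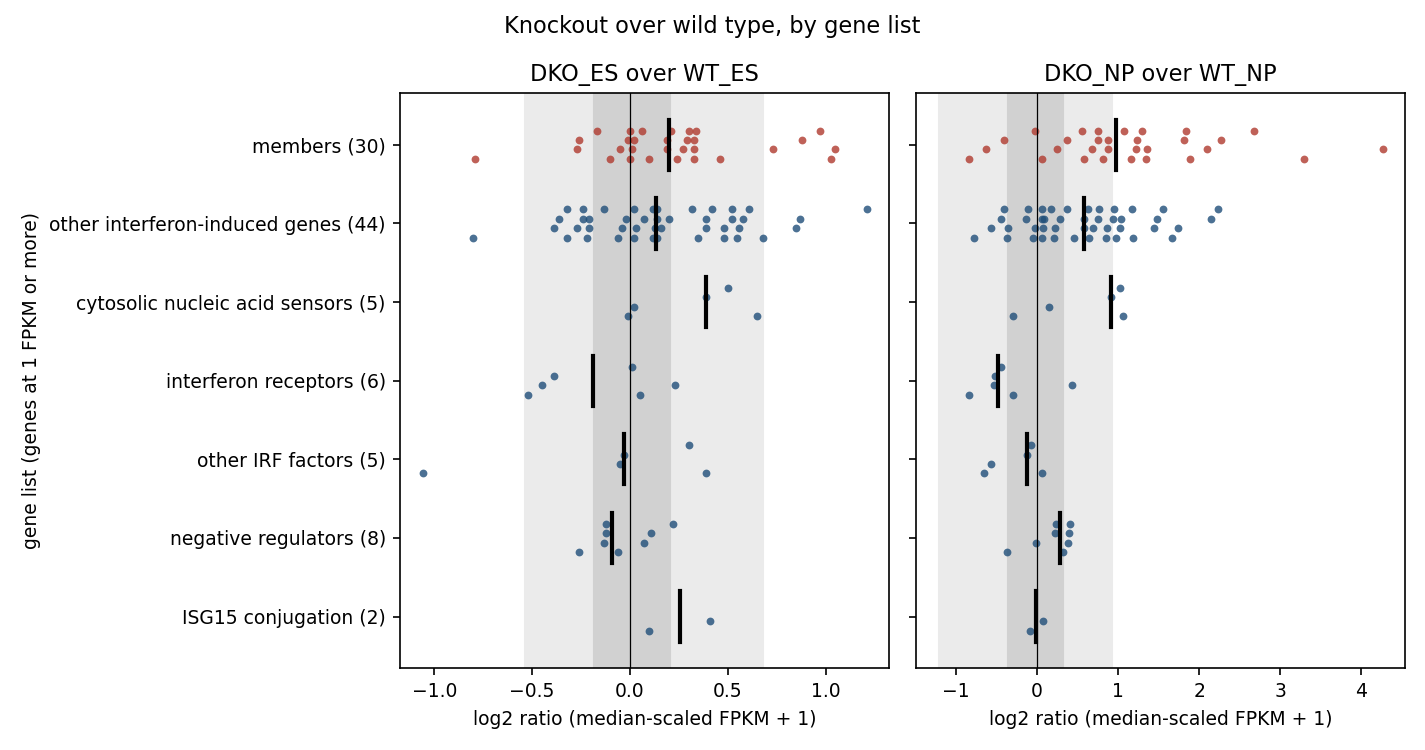
Log2 ratio of knockout over wild type on day 0 (left) and day 6 (right) for each gene at 1 FPKM or more of the interferon-stimulated set and 6 pathway lists, with black bars at the medians; dark and light grey bands span the 25th to 75th and the 5th to 95th percentile of all 14713 genes. On day 6 the medians of the set and of the further interferon-induced list are 0.98 and 0.58, and that of the receptors is -0.47.

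The day 6 libraries also differed in markers of other cells, and the part of these differences in the results above was not tested. In bulk RNA, fewer cells of a type and less RNA per cell cannot be told apart. Of all genes 4.40% were called higher and 7.43% lower in DKO_NP than in WT_NP. Summed scaled FPKM of 8 pluripotency markers was 5790, 141, 6670 and 451, and 5 of 8 were called higher in DKO_NP than in WT_NP. Primordial germ cell markers summed to 104, 39.7, 147 and 130 (4 of 8 called higher), and neural progenitor markers to 96.4, 280, 78.1 and 508 (5 of 8 higher). Of the germ cell sums, Dazl made up 61.3 in DKO_NP and 1.09 in WT_NP. Nanos3 and Kit were lower in DKO_NP, by 1.97-fold (1.23 to 3.25) and 1.27-fold (1.20 to 1.34), not called. Endoderm markers were at 192 in WT_NP and 32.8 in DKO_NP (6 of 8 lower), mesoderm markers at 114 and 17.4 (7 of 8 lower), and endothelial markers at 88.5 and 38.3 (5 of 8 lower). The 12 leukocyte markers summed to 28.1, 10.3, 29.7 and 13.6, and 2 of the 7 at 1 FPKM were called higher in DKO_NP, Tyrobp and Lyz2, at 1.06 and 2.26 FPKM against 0 listed and 0.170 FPKM in WT_NP. Cd68 made up 7.67 of the WT_NP sum and was 2.02-fold lower in DKO_NP (1.59 to 2.59), not called. Without the added 1 FPKM, Laptm5 was 4.37-fold higher (2.82 to 6.98), Cd14 2.35-fold (1.28 to 4.49) and Csf1r 1.66-fold (1.21 to 2.29). Itgam, Fcer1g and Cd52 were higher with intervals that included 1. Emr1 was listed at 0 in all 4 libraries, and Ptprc did not exceed 0.0278 FPKM. Fibroblast and feeder markers summed to 51.2, 86.8, 13.1 and 38.6, so the sum was lower in the knockout library on both days. Of the 7 at 1 FPKM, 3 were called lower on day 6 and 4 on day 0. Col3a1 made up 32.1 of the WT_NP sum and 2.49 of the DKO_NP sum. Col1a2 was 1.38-fold higher in DKO_NP than in WT_NP (1.29 to 1.49), and Fap, below 1 FPKM, 3.88-fold (1.74 to 9.72). Of all genes 1.06% were called lower on day 0.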

How the data were processed

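Total RNA (5 µg) was depleted of rRNA and made into TruSeq libraries with 15 PCR cycles, and read from a single end for 50 cycles on an Illumina HiSeq instrument, per the labels' protocols. The submitters' processing notes name TopHat, Bowtie and mm9. The program behind the values, with its annotation and its handling of reads with several matches, is not given in the sources used here. The authors deposited FPKM for 23235 genes in 1 table (18 blank rows were left out, and 0 columns were unmapped). A listed 0 can be a failed estimate: Lars2, which every cell uses, is listed at 0 in WT_ES.

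Members and lists were chosen with earlier results of these data known. Genes at 1 FPKM in any library entered, libraries were scaled to the median ratio to their geometric mean, 1 FPKM was added, and genes were called at a log2 ratio of 1. Values are named for members at 5 FPKM or called between genotypes, and for up to 4 called genes per pathway list by size of ratio; other members are named by range or to account for the set. Approximate reads come from steps in low values. For 2060 of 3339 low genes (61.7%) these were whole within 0.03 read, which is too few for a count test. GENCODE M21 lengths were used for 20846 symbols (89.7%). Reads estimated from length over reads from the steps had a median ratio of 1.0, but the ratio reached 2.0 for some genes. Where reads are overestimated, the interval is too narrow. At these depths 3 reads in a transcript of 2 kb equal 0.107, 0.0406, 0.0981 and 0.0588 FPKM. Alternatives were values as deposited, upper-quartile scaling, 0.1 FPKM added, and a filter at 5 FPKM or none. The scaling and ratio code was tested on simulated data, and the interval code was not. Python 3.11.15, numpy 2.4.6, pandas 2.3.3, scipy 1.17.1 and matplotlib 3.10.9 were used. Promoter windows come from RefSeq GRCm38.p6, and no coordinates were moved between builds. A pathway gene is not reported here.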

Additional observations from a re-analysis of the deposited data

Results flagged for a closer look

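In 2 members the genotypes differed in opposite directions on day 0 and day 6, by at least 1.5-fold each way, with counting intervals that did not include 1. Oasl2 was 1.82-fold lower in DKO_ES than in WT_ES (1.03 to 3.28) and 10.5-fold higher in DKO_NP than in WT_NP (7.90 to 14.1), a difference of 2.54 between the log2 ratios. Gbp2 was 1.92-fold lower in DKO_ES (1.61 to 2.30) and 1.87-fold higher in DKO_NP (1.51 to 2.32), a difference of 1.47. Its close copy Gbp1, named after its values were seen, was at 6.42, 0.758, 2.97 and 2.58 FPKM (order WT_ES, WT_NP, DKO_ES, DKO_NP), the same order of libraries. With 1 library a group, neither difference between the days was tested.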

How the results depend on the processing

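With the values as deposited, 15 members were called lower in WT_NP than in WT_ES (7 after scaling), 0 were called higher in DKO_ES than in WT_ES (2 after scaling), and the median log2 ratio of DKO_NP against DKO_ES was -0.04 (0.35 after scaling). With 0.1 FPKM added in place of 1 FPKM, 4 members were called higher (1 before) and 12 lower (7 before) in WT_NP against WT_ES, and 5 higher (2 before) and 1 lower (0 before) in DKO_ES against WT_ES. Among the 17 members at 5 FPKM or more, 5 were called higher in DKO_NP than in DKO_ES with a median of -0.01, and 8 higher in DKO_NP than in WT_NP; fewer members entered. Upper-quartile scaling and no filter on low values moved none of the counts or medians of the set by over 1.5 times or turned their direction. A filter on the 3 other libraries without DKO_NP, chosen after seeing the data, left 24 members and moved no count of the comparisons of WT_NP and of DKO_ES with WT_ES. The median log2 ratio of DKO_NP against WT_NP ranged from 0.88 to 1.38 over the alternatives. Of 120 log2 ratios of single members, 33 moved with 0.1 FPKM added, 15 with the values as deposited and 0 with upper-quartile scaling, and none changed sign past the call. The cause of these moves was not tested, beyond the scaling factors and the added value themselves.

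No paired analysis was possible because each group is 1 library and no replicate number is shared between groups. Leaving out a library would leave a group with none. Depth limits members under 10 reads in a library: Oas1a, Oas2 and Oasl1 in WT_NP, Ifi27l1 in WT_NP and WT_ES, Usp18, Ifit1 and Rsad2 in WT_ES, and Rtp4 and Mx2 in both ES libraries have wide intervals.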
